A study of Mus musculus with 30 samples.

Results

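The effect of abatacept over control IgG was measured in CD4+ T cells and, separately, in CD11c+ cells, and both effects were set against each other gene by gene. The members were the genes with 1 symbol on the array, 17097 in all, each represented by the probe set that was brightest on average over the series. Of these, 10794 passed a filter on low values and were tested. The comparison rested on 12 of the 30 arrays of the series, 3 for each treatment in each cell type. The other arrays, of unimmunised, primed untreated and orally tolerised mice, entered the estimate of the spread.

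All mice were DO11.10 RAG2-/- on the BALB/c background and 8 to 10 weeks old. Their CD4+ T cells bear a transgenic receptor that recognises an ovalbumin (OVA) peptide, and without RAG2 they form neither B cells nor T cells of another receptor. The abatacept and control groups were both primed with OVA (100 micrograms) emulsified in Freund's complete adjuvant (CFA) and received 10 mg/kg of abatacept or of control IgG. Isolation followed 10 days after priming. CD4+ T cells were enriched by magnetic negative selection from axillary lymph nodes. CD11c+ cells, among them the dendritic cells, were obtained with CD11c microbeads from pooled lymph nodes and spleen. Cell type and source tissue therefore cannot be told apart in any difference between the compartments.

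Full activation of a naive CD4+ T cell needs peptide on MHC class II and a costimulatory signal through CD28, which binds CD80 and CD86 on dendritic cells and other antigen-presenting cells. CTLA-4 binds the same ligands more tightly, and abatacept, a soluble form of its outer domain joined to an immunoglobulin Fc part, occupies CD80 and CD86 and denies them to CD28. The drug thus acts between both cell types, on ligands carried by one and on a signal received by the other. T cells in turn give dendritic cells signals such as CD40 ligand, which drive their maturation.

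Mitotic genes fell in CD4+ cells and their effects differed between the compartments, and genes of the type I interferon response moved in both compartments. To show the DNA in front of such genes, 250 bases upstream of the annotated start are printed for 2 members of each group, from RefSeq (GRCm38.p6), 5′ to 3′ on the strand of the gene. Ifit1 lay at chr19:34640639-34640888 and Ifit3 at chr19:34583279-34583528, both on the plus strand. Ccnb2 lay at chr9:70421555-70421804 and Cdk1 at chr10:69352913-69353162, both on the minus strand. Capitals mark letters that matched a searched motif on either strand. The motifs were the interferon-stimulated response element (ISRE), taken as GAAA followed by 2 bases of any kind and GAAA again, the cell cycle homology region (CHR) TTTGAA, and the CCAAT box.
Ifit1: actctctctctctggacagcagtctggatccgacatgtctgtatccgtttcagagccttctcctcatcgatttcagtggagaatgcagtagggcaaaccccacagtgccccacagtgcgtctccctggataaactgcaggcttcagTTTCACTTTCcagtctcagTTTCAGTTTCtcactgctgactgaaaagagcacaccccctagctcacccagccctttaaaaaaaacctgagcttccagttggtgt
Ifit3: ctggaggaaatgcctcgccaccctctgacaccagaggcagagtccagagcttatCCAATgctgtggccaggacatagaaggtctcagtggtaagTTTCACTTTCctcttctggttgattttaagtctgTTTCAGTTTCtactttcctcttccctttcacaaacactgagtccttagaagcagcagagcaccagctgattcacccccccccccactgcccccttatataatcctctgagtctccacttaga
Ccnb2: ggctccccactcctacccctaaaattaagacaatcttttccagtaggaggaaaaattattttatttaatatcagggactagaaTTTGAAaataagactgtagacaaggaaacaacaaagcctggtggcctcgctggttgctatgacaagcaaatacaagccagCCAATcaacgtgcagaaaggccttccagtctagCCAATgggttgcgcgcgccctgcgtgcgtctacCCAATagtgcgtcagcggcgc
Cdk1: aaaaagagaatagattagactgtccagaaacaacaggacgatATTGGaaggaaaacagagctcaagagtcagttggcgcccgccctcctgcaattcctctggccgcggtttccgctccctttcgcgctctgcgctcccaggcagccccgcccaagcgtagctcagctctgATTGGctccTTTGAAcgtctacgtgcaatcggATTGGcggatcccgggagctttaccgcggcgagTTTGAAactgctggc

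Both interferon genes held a pair of ISRE matches on the reverse strand, in Ifit1 at -104 to -95 and -85 to -76 from the start, and in Ifit3 at -156 to -147 and -122 to -113. The Ccnb2 sequence held 1 CHR match and 3 CCAAT boxes, and the Cdk1 sequence held 2 CHR matches and 3 CCAAT boxes on the reverse strand. Among interferon response genes tested and matched to the promoter table, 6 of 13 (46.2%) held an ISRE match, against 3.46% of all 27025 promoters of the table and 3.24% of the genes tested. Ifit3 was called higher in both compartments, but Ifit1 in CD4+ cells only. Of the members called in both, Ifit3 held an ISRE match, while Ifit2, Irf7, Ifih1, Xaf1 and Cmpk2 did not. The other matches lay in Ifit1, Oas3, Rsad2, Stat2 and Trim30a, which were not called in both. The matches were thus not particular to genes that rose in both cell types. Among mitosis genes, 15 of 17 (88.2%) held a CCAAT box, against 37.5% of all promoters, and 7 of 17 (41.2%) held a CHR match, against 18.3%. Of DNA replication genes, 12 of 16 (75%) held a CCAAT box. A match describes letters in this window and is not a measured binding site.

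The labelled cell types carried their markers. Over 9 T cell markers the mean log2 level ran from 9.88 to 10.02 in CD4+ abatacept arrays and from 9.92 to 10.00 in control arrays. Over 9 dendritic cell markers it ran from 8.33 to 8.98 in CD11c+ arrays of both treatments and from 4.16 to 4.59 in CD4+ arrays. T cell markers were also seen in CD11c+ arrays, at 5.93 to 6.15 with abatacept and 6.28 to 6.59 with control IgG, with 6 or 7 of 9 above the array median. Markers of further cell types were high there too. Across both treatments the CD11c+ means ran from 10.03 to 10.93 for red pulp macrophage and from 9.09 to 9.45 for monocyte and macrophage markers. They ran from 7.825 to 9.172 for erythroid and from 7.06 to 7.97 for neutrophil markers. The CD11c+ fraction thus held more than dendritic cell transcripts. Natural killer (NK) cell markers, 7 genes, lay at 6.40 to 6.61 in CD4+ abatacept arrays and at 5.72 to 5.81 in CD4+ control arrays. Arrays within a group correlated at 0.985 to 0.994 across the 10794 genes tested, which are not independent, and the array number limits the precision throughout.

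**Figure D1:**
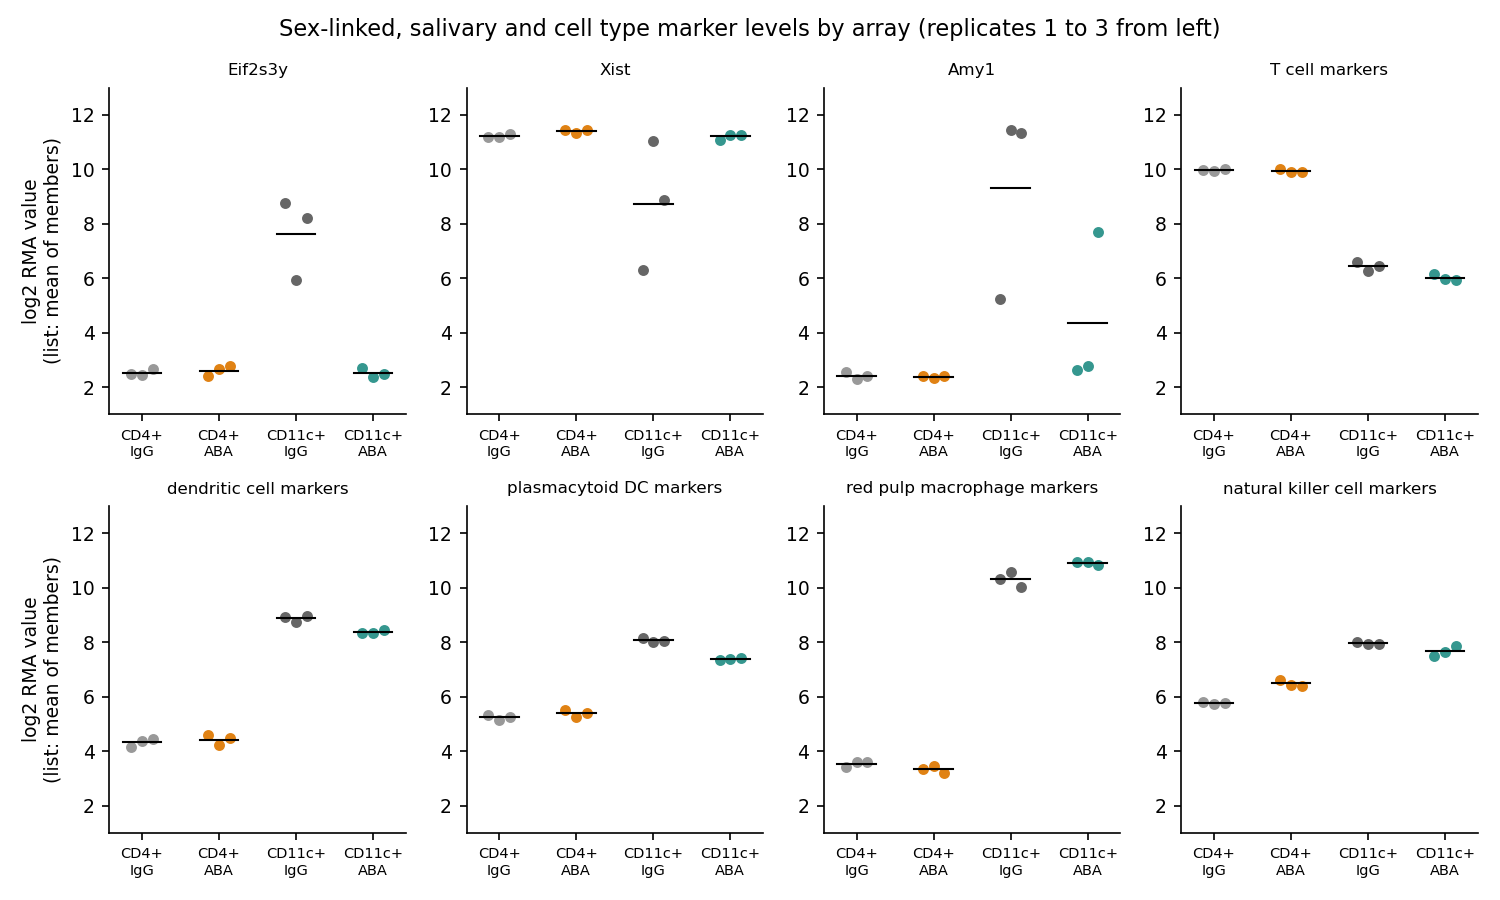
Each point is the log2 RMA value of 1 array (y axis) in the 4 groups (x axis, IgG for control and ABA for abatacept), for 3 genes and for the mean of 5 marker lists, with replicates 1 to 3 from left to right and a line at the group mean. Eif2s3y was low on all abatacept arrays and 5.92 to 8.76 on CD11c+ control arrays. The means of all 5 marker lists did not overlap between treatments in CD11c+ cells, which was so for 35.8% of single genes. The share for means of lists was not computed.

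A difference that the labels do not name ran along the treatment in CD11c+ cells. Eif2s3y, a Y-linked gene, read 2.72, 2.37 and 2.49 in CD11c+ abatacept arrays and 8.76, 5.92 and 8.20 in CD11c+ control arrays, against 2.41 to 2.76 on the 6 CD4+ arrays of the same treatments. Xist, transcribed from the inactive X chromosome, read 11.08, 11.26 and 11.27 with abatacept and 6.29, 11.02 and 8.88 with control IgG. The control arrays thus carried the Y-linked transcript in different amounts, while the abatacept arrays read near the lowest values, so that in CD11c+ cells abatacept and these transcripts cannot be told apart. With the Eif2s3y level as a covariate, 1952 genes were called in CD4+ cells, against 2001 without it, but 2 in CD11c+ cells and 11 by the difference between compartments. In that fit the 3 CD11c+ control arrays supplied 92.2% of the covariate's variation within groups. The CD11c+ effects of the genes called shrank to a median of 0.30 of their value without the covariate, and the differences between compartments to 0.61. The median standard error of these CD11c+ effects rose 2.98-fold, and 1112 of 1608 (69.2%) kept their sign. Amy1, a salivary amylase gene, read 5.23, 11.43 and 11.31 in CD11c+ control and 2.63, 2.79 and 7.69 in CD11c+ abatacept arrays, and 2.30 to 2.56 in CD4+ arrays. With a salivary covariate 1138 genes were called in CD11c+ cells and 1217 by the difference, against 1608 and 1548 without it. All 1608 CD11c+ genes kept their sign. The part of tissue carry-over in the results was not tested further.

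The size of the response was compared first. In CD4+ cells 2001 of 10794 genes were called (18.5%), 414 higher (3.84%) and 1587 lower (14.7%) with abatacept. In CD11c+ cells 1608 were called (14.9%), 627 higher (5.81%) and 981 lower (9.09%). Calls are at a Benjamini-Hochberg adjusted p under 0.05 in limma. The difference between the effects, the CD4+ log2 difference minus the CD11c+ log2 difference, was called for 1548 genes (14.3%), with 539 higher (4.99%) and 1009 lower (9.35%) in CD4+ relative to CD11c+ cells. The labels do not say that the 3 arrays of a group come from separate mice, so the p-values speak of the spread among these arrays only, and that spread may be technical. The CD4+ count fell to 1291 without CD4+ abatacept replicate 3. The CD11c+ count fell to 892 and 1046 without abatacept replicates 1 and 2, and to 935 and 641 without control replicates 1 and 3, and the difference count fell to 1015 without that last array.

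Each gene was put in a class by its 3 calls. Shared genes were called in both compartments in 1 direction, and there were 246 (2.28%), of which 44 were higher (0.408%) and 202 lower (1.87%). Opposite genes were called in both with opposed signs, and there were 99 (0.917%), 33 higher in CD4+ and lower in CD11c+ cells (0.306%) and 66 the other way (0.611%). Genes confined to one compartment were called there, not in the other, and also by the difference. Of these 744 belonged to CD4+ cells (6.89%), 133 higher (1.23%) and 611 lower (5.66%), and 533 to CD11c+ cells (4.94%), 222 higher (2.06%) and 311 lower (2.88%). A further 912 genes (8.45%) were called in CD4+ cells alone and 730 (6.76%) in CD11c+ cells alone with a difference that was not called, so no difference in effect was shown for them. For 150 (1.39%) only the difference was called, and 7380 (68.4%) had no call.

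Membership of a class was less firm than the counts. Leaving out each of the 12 arrays in turn, 58 of 246 shared, 19 of 99 opposite, 338 of 744 CD4 confined and 194 of 533 CD11c confined genes kept their class in every fit. Shared genes numbered 138 and 109 without CD11c+ abatacept replicate 1 and control replicate 3, and 133 without control replicate 1. Opposite genes numbered 53 without CD11c+ abatacept replicate 1 or 2 or control replicate 1, and 38 without control replicate 3. CD4 confined genes numbered 483 without CD4+ abatacept replicate 3. CD11c confined genes numbered 311, 346, 339 and 242 without CD11c+ abatacept replicates 1 and 2 and control replicates 1 and 3.

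**Figure D2:**
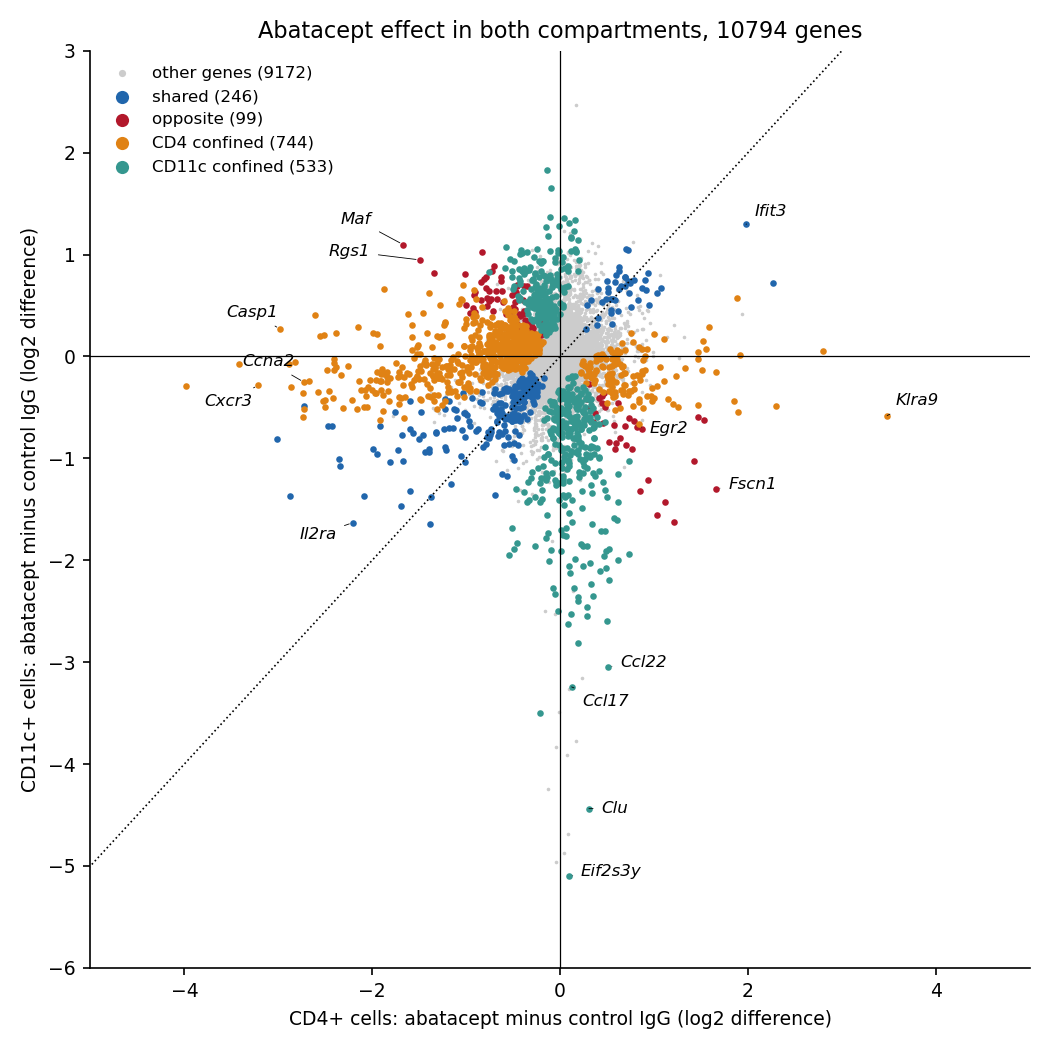
Each point is a gene, with the log2 difference between abatacept and control IgG in CD4+ cells on the x axis and in CD11c+ cells on the y axis, coloured by class, and the dotted line marks equal effects. CD4 confined genes (744) spread along the x axis, mostly to the left, CD11c confined genes (533) along the y axis, and 246 shared and 99 opposite genes lie between the axes.

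The effects of abatacept in both compartments were weakly related. Across the 10794 genes, which are not independent replicates and share arrays within each effect, the log2 differences correlated with Pearson's r of 0.082 and Spearman's rho of 0.112. Of the genes lower in CD4+ cells 12.7% were also lower in CD11c+ cells, where 9.09% of all genes were lower, and these were 20.6% of the genes lower in CD11c+ cells, where 14.7% of all genes were lower in CD4+ cells. Genes higher in both made up 10.6% of those higher in CD4+ cells and 7.02% of those higher in CD11c+ cells, against 5.81% and 3.84% of all genes. Genes lower in CD4+ and higher in CD11c+ cells made up 4.16% of the former and 10.5% of the latter, against 5.81% and 14.7%. Genes higher in CD4+ and lower in CD11c+ cells made up 7.97% of the former and 3.36% of the latter, against 9.09% and 3.84%. The median shared gene changed by 0.586 in CD4+ and 0.559 in CD11c+ cells in size. The median CD4 confined gene changed by 0.64 and by 0.153, and the median CD11c confined gene by 0.159 and by 0.709. Of the CD4 confined genes 675 (90.7%) lay above the array median on enough arrays of both compartments, and of the CD11c confined genes 365 (68.5%), so that a part of the latter was hardly measured in CD4+ cells.

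The interferon response was the group that rose in both cell types. Of 22 genes of the type I interferon response tested, 18 were higher in CD4+ cells and 11 in CD11c+ cells, with median differences of 0.70 and 0.52, against medians of -0.07 and -0.02 over all genes. Without CD11c+ control replicate 3 the CD11c+ count was 6. Over all genes tested, 3.84% were higher in CD4+ and 5.81% in CD11c+ cells. Of the 22, 10 were shared: Cmpk2, Dhx58, Ifih1, Ifit2, Ifit3, Irf7, Mx2, Oas2, Rtp4 and Xaf1, among them sensors of viral RNA (Ifih1, Dhx58) and antiviral effectors (Mx2, Oas2), and 6 of them were shared without that array. In bulk samples a change in the cells that carry an RNA and a change of RNA per cell cannot be told apart.

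Ifit3, whose product binds viral RNA in a complex with Ifit1, read 7.96, 8.81 and 9.74 in CD4+ abatacept arrays and 7.06, 6.57 and 6.95 in CD4+ control arrays. In CD11c+ cells it read 9.07, 9.09 and 9.06 with abatacept and 7.83, 8.08 and 7.43 with control IgG. Abatacept arrays lay above control arrays in both, and those of CD4+ cells were spread widely, with replicate 3 the highest. The log2 difference was 1.98 in CD4+ cells (3.95-fold, SE 0.26, adjusted p = 6.19e-06 in limma) and 1.30 in CD11c+ cells (2.46-fold, SE 0.26, adjusted p = 0.0018). The difference between compartments was 0.68, with a 95% interval of -0.09 to 1.45, and was not called. Ifit2, its relative, was higher by 0.75 and 0.72, Xaf1, a pro-apoptotic interferon target, by 0.69 and 0.78, and the RNA sensor gene Dhx58 by 0.90 and 0.75. Their arrays did not overlap between treatments in either cell type, which was so for 35.7% of all genes in CD4+ and 35.8% in CD11c+ cells. Irf7, the factor that amplifies interferon production, was higher by 1.03 in CD4+ and 0.62 in CD11c+ cells, and the latter call was lost without CD11c+ abatacept replicate 1 (0.56) or control replicate 3 (0.49).

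Single members differed between the compartments. Ifit1 read 8.98, 9.15 and 10.33 in CD4+ abatacept arrays and 7.49, 7.58 and 7.73 in control arrays, and in CD11c+ cells 7.36, 7.52 and 7.28 against 6.87, 6.94 and 6.62. The arrays did not overlap in either cell type, but the gap was wider in CD4+ cells. Its log2 difference was 1.89 in CD4+ cells (adjusted p = 1.04e-06 in limma) and 0.58 in CD11c+ cells (adjusted p = 0.0851), and the difference of 1.31 between them was called (95% interval 0.66 to 1.96, adjusted p = 0.00644). Usp18, which removes ISG15 and dampens the interferon receptor, was higher by 1.46 in CD4+ cells and stood at -0.48 in CD11c+ cells (adjusted p = 0.168), a difference of 1.94 that was called (adjusted p = 0.000197). In all 3 of the 22 genes were called by the difference, against 14.3% of all genes, each higher in CD4+ cells, and 6 without CD4+ abatacept replicate 1. Across the CD11c+ groups Ifit3 averaged 7.78 in control, 7.59 in primed and 7.82 in tolerised arrays, and 8.93 in unimmunised and 9.07 in abatacept arrays.

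The genes lower in both compartments included a few receptors of activated lymphocytes. Il2ra encodes CD25, the high-affinity subunit of the interleukin-2 receptor, carried by activated and regulatory T cells and by some mature dendritic cells. It read 6.75, 6.83 and 6.66 in CD4+ abatacept and 8.98, 9.09 and 8.78 in CD4+ control arrays. In CD11c+ cells it read 4.67, 4.41 and 4.38 with abatacept and 6.28, 5.51 and 6.56 with control IgG, with control replicate 2 the lowest of its group. Abatacept arrays were lower than control arrays in both, by -2.20 (4.6-fold, adjusted p = 2.65e-08 in limma) and -1.63 (3.09-fold, adjusted p = 1.98e-05). The CD11c+ abatacept mean lay below the array medians, so that fold is not exact. The effects differed by -0.57 (95% interval -1.17 to 0.03), which was not called, but its other probe set gave a difference of -1.98.

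Socs2, a feedback inhibitor of cytokine signalling, read 4.44, 3.71 and 4.45 in CD4+ abatacept and 5.84, 5.89 and 5.95 in CD4+ control arrays, and 6.86, 6.60 and 6.41 against 8.23, 7.29 and 8.74 in CD11c+ cells. Its arrays did not overlap in either cell type, and it fell by 1.69 and 1.47 on the log2 scale. Its 4 probe sets gave differences between compartments of -0.23 to 1.84, and its CD4+ abatacept mean lay below the array medians, so the size of the CD4+ fall is not exact. Cst7, a cathepsin inhibitor of cytotoxic and activated cells, was lower by the same amount in both, -1.38 and -1.38, with a difference of 0.01 (95% interval -0.66 to 0.66). Glipr2 fell by 1.39 and 1.64, and the amino acid transporter gene Slc38a1 by 0.59 and 0.61. Il1r2, the decoy receptor for interleukin-1, fell in both, at -2.88 and -1.37, with a difference of -1.51 that was called (adjusted p = 0.00487 in limma). Both of its abatacept means lay below the array medians, so neither fall is exact. It was 1 of 22 shared genes with such a difference. For the other 224 shared genes the difference was not called, which leaves differences of the size of these intervals possible.

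Some markers of T cells were also lower in CD11c+ cells, but as a list they did not fall in CD4+ cells. In CD11c+ arrays 3 of 9 T cell markers were lower with abatacept (Cd3g, Cd5 and Trat1, median difference of the list -0.41), and 1 without CD11c+ abatacept replicate 3 or control replicate 1. The mean level of the list did not overlap between treatments there, as given above, which was so for 35.8% of single genes. In CD4+ cells 1 of the 9 was lower, with a list median of 0.09. Of all genes tested, 14.7% were lower in CD4+ and 9.09% in CD11c+ cells. Trat1, which stabilises the T cell receptor complex, was lower in both compartments, by -0.87 and -0.72. The part of T cells within the CD11c+ fraction in the falls of Il2ra, Socs2 and Cst7 was not tested. Of 23 genes of T cell activation, 9 were lower and 7 higher in CD4+ cells and 7 were lower in CD11c+ cells, 4 without CD11c+ abatacept replicate 1 or control replicate 3. Its shared members were Cd44, Il2ra and Tnfrsf4, the last encoding the costimulatory receptor OX40. Cd44 fell by 0.47 and 0.43, with the CD11c+ call lost without abatacept replicate 1 (-0.37). Tnfrsf4 fell by 1.24 and 0.71, with the CD11c+ call lost without control replicate 3 (-0.57).

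**Figure D3:**
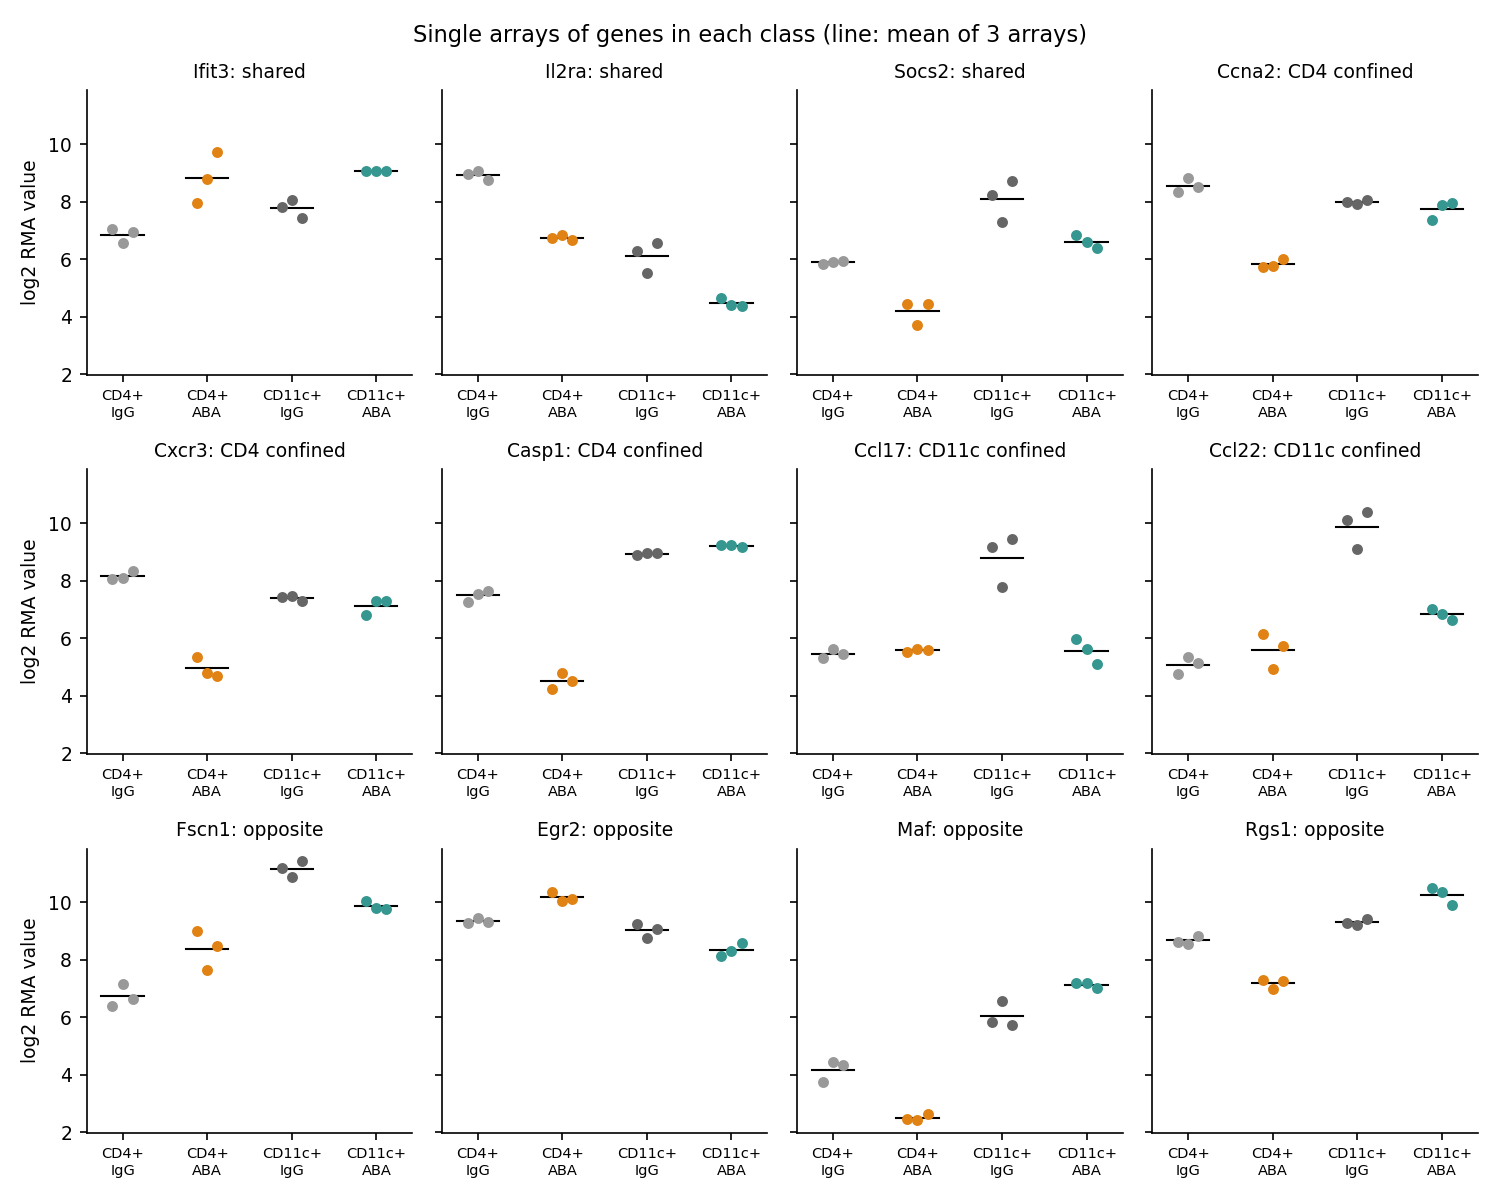
Log2 RMA values of single arrays (y axis) in the 4 groups (x axis) for 12 genes, with 3 arrays and a line at the mean for each group and the class of the gene above each panel. Ifit3 was higher and Il2ra lower with abatacept in both cell types, Ccna2, Cxcr3 and Casp1 fell in CD4+ cells, Ccl17 and Ccl22 fell in CD11c+ cells, and Fscn1, Egr2, Maf and Rgs1 moved in opposite directions.

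Among the pathway lists, mitosis genes had the largest median difference between compartments. All 21 mitosis genes tested were lower in CD4+ cells, with a median log2 difference of -2.14, and all 21 were called by the difference between compartments, with a median of -1.79. In CD11c+ cells 1 of the 21 was called lower, Nek2, and the median was -0.33, against -0.02 over all genes. All 21 nevertheless had differences below 0 there too. The CD11c+ list mean was 6.31 to 6.756 with abatacept and 6.805 to 6.951 with control IgG, without overlap. Of single genes 35.8% did not overlap there, and no such share was computed for list means. The Nek2 call in CD11c+ cells (-0.49) was lost without any CD11c+ array other than abatacept replicate 3 (-0.38 to -0.54), and other probe sets of Nek2 gave differences between compartments of up to 0.17. Of 19 DNA replication genes, 18 were lower in CD4+ cells (median -0.88) and 10 were called by the difference (median -0.59). In CD11c+ cells the thymidylate synthase gene Tyms alone was called (-0.54), and not without abatacept replicate 1 or control replicate 1 or 3 (-0.43, -0.54 and -0.48). Of the 19 genes, 18 had differences below 0 in both compartments, with a CD11c+ median of -0.20.

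Ccna2, cyclin A2, which drives S phase and entry into mitosis, read 5.74, 5.77 and 6.03 in CD4+ abatacept and 8.35, 8.83 and 8.52 in CD4+ control arrays, far apart. In CD11c+ cells it read 7.37, 7.88 and 7.96 with abatacept and 8.01, 7.92 and 8.05 with control IgG, and those ranges overlapped. The log2 difference was -2.72 in CD4+ cells (6.6-fold, SE 0.17, adjusted p = 3.31e-11 in limma) and -0.26 in CD11c+ cells (95% interval -0.60 to 0.09, adjusted p = 0.343). They differed by -2.47 (95% interval -2.95 to -1.98, adjusted p = 1.97e-07). Cdk1, the kinase that triggers mitosis, read 4.96, 4.79 and 4.71 against 7.21, 7.53 and 6.95 in CD4+ cells, and 6.64, 6.61 and 7.11 against 6.76, 6.86 and 6.92 in CD11c+ cells. It thus fell by 2.41 in CD4+ cells, while its CD11c+ arrays overlapped with a difference of -0.06 (95% interval -0.43 to 0.31). The mitotic cyclin gene Ccnb2 differed by -2.86 and -0.30, the ubiquitin-conjugating enzyme gene Ube2c, which serves the exit from mitosis, by -2.82 and -0.06, and the proliferation marker gene Mki67 by -2.14 and -0.24. Rrm2, the ribonucleotide reductase subunit that supplies DNA precursors, differed by -2.74 and -0.36, and Cdc6, which loads the replicative helicase, by -1.95 and -0.16. Each of these CD4+ effects and differences was called, and none of the CD11c+ effects was.

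CD11c+ cells also expressed the group. Over the mitosis genes the mean log2 level was 5.15 in CD4+ abatacept and 7.28 in CD4+ control arrays, and 6.55 and 6.86 in the CD11c+ groups. The list mean of CD4+ cells lay above that of CD11c+ cells with control IgG and below it with abatacept. Unimmunised, primed and tolerised CD4+ arrays averaged 7.99, 7.60 and 6.61 over the same genes. The unimmunised CD4+ arrays also carried markers of other cells, with mean levels of 9.45 for neutrophil, 8.62 for red pulp macrophage and 8.90 for erythroid markers and of 8.56 for T cell markers.

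Single receptors and effectors of T cells also fell in CD4+ cells. The Th1 and effector list did not fall as a whole (median 0.01), while the regulatory T cell list did, as given below. Of 10 T follicular helper genes 4 were lower and 0 higher in CD4+ cells (median -0.38). Over all genes tested, 14.7% were lower and 3.84% higher there. Of 15 Th1 and effector genes 3 were lower (5 without CD4+ abatacept replicate 3) and 3 higher in CD4+ cells, and 1 was lower and 4 were higher by the difference. Cxcr3, the chemokine receptor of Th1 cells, read 5.36, 4.80 and 4.71 in CD4+ abatacept and 8.06, 8.11 and 8.34 in CD4+ control arrays. In CD11c+ cells it read 6.80, 7.29 and 7.31 against 7.45, 7.49 and 7.31, with overlap. The CD4+ fall was 9.26-fold (log2 -3.21, SE 0.17, adjusted p = 5.22e-12 in limma), and the difference between compartments was -2.93 (95% interval -3.43 to -2.43, adjusted p = 2.56e-08). The ligand genes Cxcl9 and Cxcl10 were called in neither compartment, with differences between compartments of 1.12 (95% interval -0.09 to 2.34) and 0.42 (95% interval -0.29 to 1.12).

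Casp1, the inflammasome protease that matures interleukin-1 beta, showed the difference of smallest p. It read 4.23, 4.79 and 4.53 in CD4+ abatacept and 7.27, 7.55 and 7.66 in CD4+ control arrays, and 9.23, 9.25 and 9.17 against 8.90, 8.98 and 8.96 in CD11c+ cells, where it was abundant under both treatments. It fell by 2.98 in CD4+ cells, to about the array median, and stood at 0.27 in CD11c+ cells (adjusted p = 0.105 in limma), a difference of -3.25 (95% interval -3.56 to -2.93, adjusted p = 1.19e-12). Ifitm1, an interferon-induced membrane protein gene, fell by 3.42 in CD4+ cells and was at -0.07 in CD11c+ cells, opposite in direction to the interferon list. The unnamed transcript 1500009L16Rik had the largest CD4 confined fall, -3.98 against -0.29. Ccr4, a chemokine receptor of Th2 and regulatory cells whose ligands are Ccl17 and Ccl22, fell by 2.89 in CD4+ cells, and its CD11c+ means lay below the array medians.

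Of 12 regulatory T cell genes 6 were lower in CD4+ cells (median -0.86) and 3 were called by the difference, all lower in CD4+ relative to CD11c+ cells. In CD11c+ cells 2 were lower (Il2ra and Klrg1, both shared), or 1 without abatacept replicate 1 or 2 or control replicate 1, with a list median of -0.35 and mean levels of 5.89 to 5.99 with abatacept and 6.12 to 6.41 with control IgG. The 3 called by the difference were Foxp3, the lineage factor (-1.74 against -0.06), Ebi3, a subunit of interleukin-27 and interleukin-35 (-2.61 against 0.41), and Entpd1, the CD39 ectonucleotidase (-1.28 against 0.51). Icos, the costimulatory receptor induced on activated and follicular helper T cells, fell by 1.89 in CD4+ cells and stood at -0.38 in CD11c+ cells, a difference of -1.50 (adjusted p = 5.03e-05 in limma). The CD4+ abatacept means of Ebi3 and Entpd1 lay below the array medians. Beside the list counts, 14.7% of all genes were lower in CD4+ cells, 9.09% in CD11c+ cells and 9.35% by the difference.

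Metabolic and secretory genes followed the same side. Of 15 cholesterol synthesis genes 9 were lower in CD4+ cells (median -0.47) and 1 was higher in CD11c+ cells (Insig1; 2 without control replicate 2), and 9 were called by the difference (median -0.60). That count was 4 without CD4+ abatacept replicate 2 or control replicate 3, and 5 without CD11c+ abatacept replicate 2. Among all genes 14.7% were lower in CD4+ cells and 9.35% were lower by the difference. Sqle, which makes squalene epoxide, was at -1.44 and -0.04. Of 14 unfolded protein response genes 6 were lower and 2 higher in CD4+ cells. The 2 higher became 1 without any array other than CD4+ abatacept replicate 2, CD4+ control replicate 1 or CD11c+ abatacept replicate 3. In limma 0 were called in CD11c+ cells (at an unadjusted p under 0.05, 2 were). The difference was called for 7, each lower, but for 4 without CD4+ abatacept replicate 3 or CD11c+ control replicate 3, and for 3 without CD11c+ abatacept replicate 2 or control replicate 1. Among them were Xbp1, the secretory cell transcription factor (-0.88 against 0.10), and the chaperone gene Sdf2l1 (-0.92 against 0.33).

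Rises confined to CD4+ cells were fewer and of other kinds. The immediate early genes, switched on within minutes of a stimulus, were one such group: 7 of 13 were higher in CD4+ cells (median 0.51) and 7 were called by the difference (median 0.85), with 1 (Fos) higher in CD11c+ cells. The shares over all genes were 3.84% higher in CD4+ cells, 4.99% higher by the difference and 5.81% higher in CD11c+ cells. Jun was at 1.55 and 0.08, the phosphatase gene Dusp1 at 1.59 and 0.29, and the receptor-induced factors Nr4a1 and Egr1 at 1.46 and 0.04, and 0.87 and -0.18. Fos rose by 2.27 in CD4+ cells, and its CD11c+ rise of 0.72 was lost without any CD11c+ array other than abatacept replicate 3 (0.68 to 0.77).

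Single genes of NK and other cytotoxic cells also rose, while others did not. Klra9, an NK cell receptor of the Ly49 family, read 6.58, 6.58 and 6.11 in CD4+ abatacept and 2.91, 3.34 and 2.57 in CD4+ control arrays, the latter below the array medians. It was at 3.48 in CD4+ and -0.58 in CD11c+ cells, and the difference of 4.06 was called (adjusted p = 8.23e-06 in limma). Its family shares sequence, so the member is uncertain. Ccl5, a chemokine of memory and cytotoxic cells, read 8.81, 8.33 and 8.79 against 5.88, 6.54 and 6.62 in CD4+ cells, a rise of 2.30 with a difference between compartments of 2.78 (adjusted p = 5.29e-07). Tyrobp, the signalling adaptor of NK and myeloid receptors, rose by 2.80, and Eomes, a T-box factor of NK and CD8+ cells, by 1.25. Of 7 NK cell markers 3 were higher in CD4+ cells (Klrk1, Gzma and Eomes) and 4 by the difference, 2 without CD4+ control replicate 2. Their mean level was higher on all CD4+ abatacept arrays than on all control arrays, with 6 or 7 of 7 above the array median against 5 or 6. Of single genes 35.7% did not overlap between treatments in CD4+ cells, and 3.84% of all genes were called higher. In CD11c+ cells the list median was -0.37, and 1 of the 7 was called lower, Gzma, which was thus opposite. That class was lost without any CD11c+ array other than abatacept replicate 3. The CD11c+ list mean was 7.495 to 7.876 with abatacept and 7.92 to 8.003 with control IgG. Gzmb, the protease granzyme B, was lower in both compartments (-2.08 and -1.37), as was the receptor gene Klrg1 (-1.68 and -1.03), and Prf1, perforin, was called in neither (0.13 and 0.16). The CD11c+ calls were lost for Gzmb without abatacept replicate 1 or control replicate 1 or 3 (-1.03, -1.28 and -1.38) and for Klrg1 without abatacept replicate 1 or 2 or control replicate 1 (-0.85, -0.97 and -0.91). The part of NK cells in the rises was not tested. Other rises included Tnfsf4, the OX40 ligand gene (1.89 against -0.55), and the netrin gene Ntn4 (1.91 against 0.01), both below the array medians in CD11c+ cells.

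**Figure D4:**
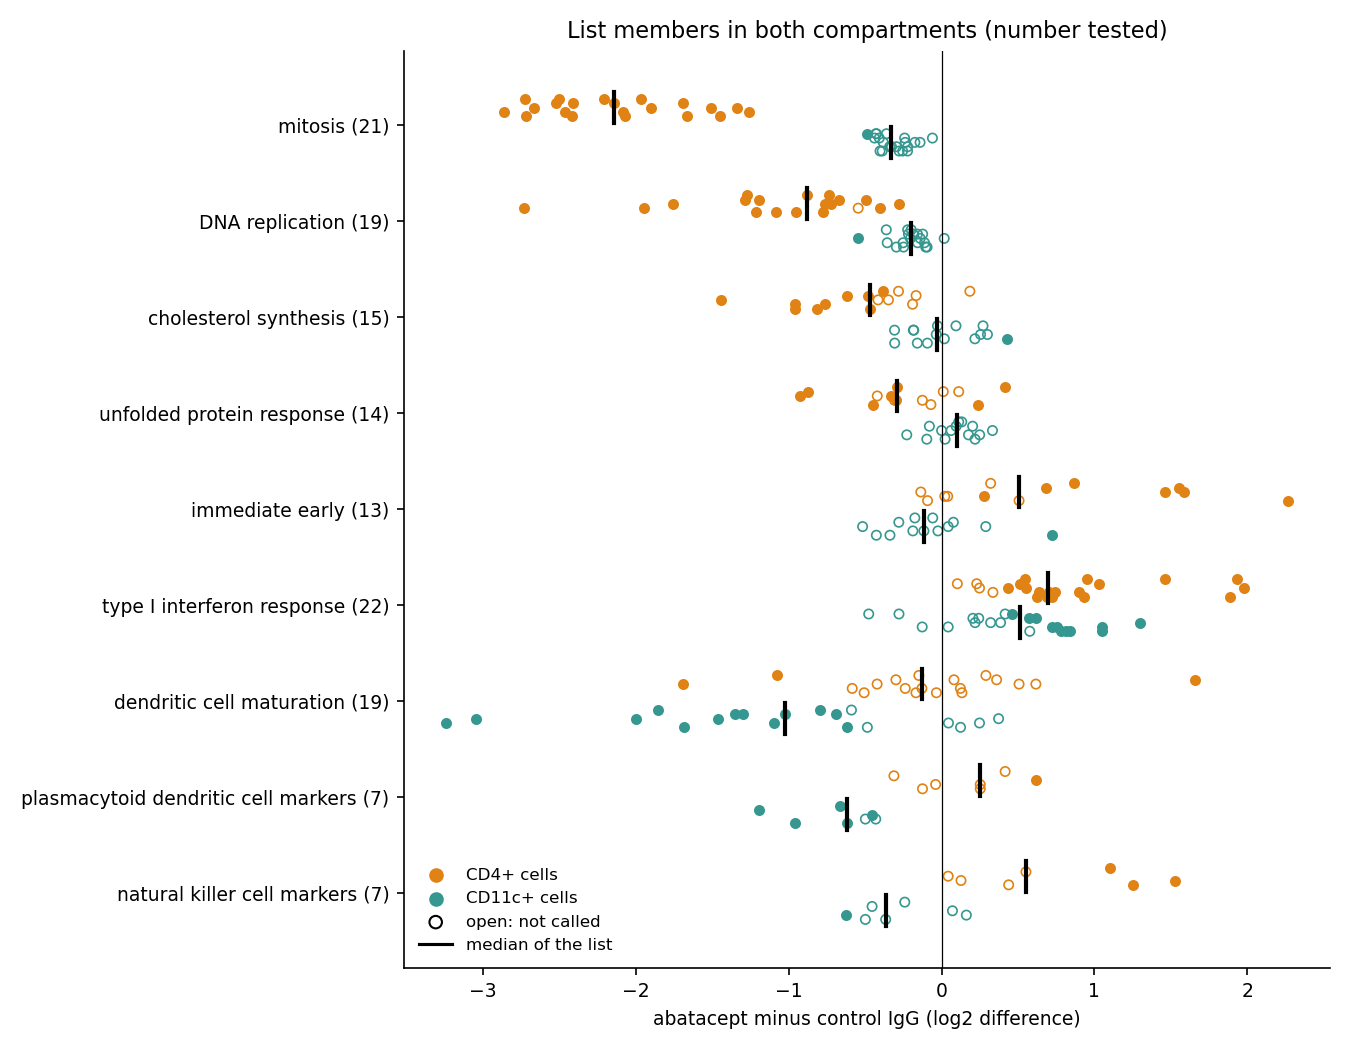
Log2 difference between abatacept and control IgG (x axis) of each tested member of 9 gene lists (y axis, number tested in brackets) in CD4+ and CD11c+ cells, where filled points were called, open points were not, and bars mark list medians. Mitosis genes lie at a median of -2.14 in CD4+ and -0.33 in CD11c+ cells, and dendritic cell maturation genes at -0.13 and -1.03.

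Maturation genes of dendritic cells fell in CD11c+ cells. Of 19 tested, 13 were lower in CD11c+ cells (median -1.03) and 2 in CD4+ cells (4 without CD11c+ control replicate 2), where 1 was higher and the median was -0.13. The difference was called for 10 as higher in CD4+ relative to CD11c+ cells, and for Cd86, treated below, as lower. A set of 9 was CD11c confined: Birc3, Ccl17, Ccl22, Cd274, Cd40, Il4i1, Pdcd1lg2, Relb and Traf1. Without CD11c+ control replicates 2 and 3, 11 were lower in CD11c+ cells. The 11 called by the difference became 7 without control replicate 1 or 3. Over all genes tested, 9.09% were lower in CD11c+ and 14.7% in CD4+ cells, and 14.3% were called by the difference. In CD11c+ cells abatacept and the sex-linked transcripts described above cannot be told apart, and this holds for the falls of the maturation genes. The part of that difference in these falls was not tested.

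Ccl17 and Ccl22 encode the ligands of CCR4, made by mature dendritic cells. Ccl17 read 5.98, 5.62 and 5.12 in CD11c+ abatacept and 9.19, 7.78 and 9.47 in CD11c+ control arrays, with control replicate 2 the lowest of its group yet above every abatacept array. In CD4+ cells it read 5.52, 5.65 and 5.60 against 5.31, 5.64 and 5.45, with overlap. The CD11c+ fall was 9.47-fold (log2 -3.24, SE 0.33, adjusted p = 1.26e-06 in limma), and the compartments differed by 3.37 (95% interval 2.41 to 4.33, adjusted p = 2.75e-05). Ccl22 read 7.01, 6.85 and 6.65 against 10.12, 9.11 and 10.41 in CD11c+ cells, in the same order of arrays, and 6.16, 4.92 and 5.72 against 4.77, 5.37 and 5.13 in CD4+ cells. It was 8.26-fold lower in CD11c+ cells, with a difference of 3.55 between compartments (adjusted p = 4.8e-05). Thus both ligand genes were lower in CD11c+ cells and the receptor gene Ccr4 in CD4+ cells. In the other CD11c+ groups, Ccl17 averaged 5.97 in unimmunised, 8.49 in primed and 9.18 in tolerised arrays, and Ccl22 6.88, 9.65 and 10.05. The abatacept arrays averaged 5.57 for Ccl17 and 6.83 for Ccl22, below the primed and tolerised arrays of both genes. Eif2s3y averaged 8.58 in the primed and 2.62 in the tolerised arrays.

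Cd40, the receptor for the T cell's CD40 ligand, fell by 1.86 in CD11c+ cells, with a difference of 2.15 between compartments. Il4i1, an enzyme of mature dendritic cells that breaks down phenylalanine, fell by 1.999 (difference 2.62). The genes of the inhibitory ligands PD-L1 and PD-L2, Cd274 and Pdcd1lg2, fell by 0.69 and 1.69. The Cd274 call in CD11c+ cells was lost without control replicate 3 (-0.51), and the difference for Pdcd1lg2 (1.18) without control replicate 1 or 3 (1.02 and 0.95). Outside the list, Clu, the secreted chaperone clusterin, had the largest fall of the class after Eif2s3y, which is counted in it. It read 5.40, 4.31 and 4.75 with abatacept and 9.58, 8.38 and 9.81 with control IgG, 21.7-fold lower (adjusted p = 1.06e-06 in limma), and lay below the array medians in CD4+ cells. Clu averaged 4.71 in unimmunised, 8.78 in primed and 8.20 in tolerised CD11c+ arrays. The adaptor gene Stap2 fell by 2.81 and Il1rn, the interleukin-1 receptor antagonist, by 2.27, both below the array medians in CD4+ cells.

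Markers of the cells in the CD11c+ fraction moved as well. Of 7 plasmacytoid dendritic cell markers 5 were lower in CD11c+ cells (Ccr9, Irf8, Ly6d, Pacsin1 and Spib, median -0.62), and 3 without CD11c+ abatacept replicate 1 or 3 or control replicate 1 or 3. Their mean level was 7.34 to 7.40 with abatacept and 8.00 to 8.14 with control IgG. Ccr9, a homing receptor, was at -0.96 in CD11c+ and -0.13 in CD4+ cells, and Pacsin1, an endocytic adaptor, at -0.67 and 0.42. Of 9 dendritic cell markers 3 were lower (Cd209a, Clec10a and Zbtb46), with Clec10a, a lectin receptor, at -1.15. The mean of the list was 8.33 to 8.43 with abatacept and 8.73 to 8.98 with control IgG. Red pulp macrophage markers, 8 genes, ran the other way, at 10.84 to 10.93 with abatacept and 10.03 to 10.58 with control IgG, with 2 called higher (Hmox1 and Spic). Their count was 4 without CD11c+ control replicate 2, 0 without control replicate 3, and 1 without control replicate 1, any CD11c+ abatacept array, CD4+ abatacept replicate 3 or CD4+ control replicate 2. Beside these marker counts, 9.09% of all genes were lower and 5.81% higher in CD11c+ cells. The part of a shift among these cell types in the falls of the maturation genes was not tested.

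Rises confined to CD11c+ cells had smaller sizes. Adam33, a membrane metalloprotease gene, read 5.87, 5.92 and 6.05 in CD11c+ abatacept and 4.57, 4.25 and 3.52 in CD11c+ control arrays, and the control mean lay below the array medians. It rose by 1.83 (adjusted p = 1.13e-05 in limma), differed by -1.97 between compartments, and averaged 5.94 in unimmunised, 3.84 in primed and 3.46 in tolerised arrays. The Wnt agonist gene Rspo1 rose by 1.37. Spic, the factor that red pulp macrophages need, rose by 0.86, a call lost without control replicate 3 (0.70).

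Opposite genes included factors induced by receptor signalling. Egr2, a transcription factor of T cell anergy and of dendritic cells, read 10.37, 10.05 and 10.11 in CD4+ abatacept and 9.29, 9.45 and 9.32 in CD4+ control arrays, and 8.12, 8.31 and 8.60 against 9.25, 8.78 and 9.07 in CD11c+ cells. It was higher with abatacept on every CD4+ array and lower on every CD11c+ array than the controls. The differences were 0.82 (adjusted p = 0.000293 in limma) and -0.69 (adjusted p = 0.00273), and the effects differed by 1.51 (95% interval 1.08 to 1.95, adjusted p = 2.9e-05). Nr4a3, an orphan nuclear receptor, was at 1.46 and -0.59, with the CD11c+ call lost without abatacept replicate 1 or 2 (-0.51 and -0.61) or control replicate 1 or 3 (-0.49 and -0.48). With Tnfrsf9, the 4-1BB receptor gene, these were the 3 opposite members of the T cell activation list.

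Fscn1, fascin, bundles actin in the dendrites of mature dendritic cells. It read 8.997, 7.67 and 8.50 in CD4+ abatacept and 6.39, 7.17 and 6.62 in CD4+ control arrays, and 10.04, 9.81 and 9.77 against 11.21, 10.88 and 11.43 in CD11c+ cells. Its CD4+ level rose by 1.66 and its CD11c+ level fell by 1.30 (adjusted p = 0.000701 and 0.00844 in limma), and the CD11c+ call was lost without control replicate 3 (-1.17). Its 4 probe sets gave differences between compartments of 0.36 to 3.73. The immunoglobulin superfamily gene Igsf3 was at 1.12 and -1.43, and Cnn3, an actin-binding calponin, at 0.94 and -1.21. Klf2, which keeps T cells in circulation through S1pr1, was at 0.46 and -0.36, and the CD11c+ call was lost without abatacept replicate 2 (-0.30) or control replicate 1 (-0.31).

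Other opposite genes fell in CD4+ and rose in CD11c+ cells. Rgs1 shortens chemokine receptor signalling, and it read 7.32, 6.98 and 7.28 in CD4+ abatacept and 8.63, 8.57 and 8.84 in CD4+ control arrays. In CD11c+ cells it read 10.49, 10.37 and 9.91 with abatacept and 9.28, 9.21 and 9.44 with control IgG. Neither pair of groups overlapped, and the effects of -1.49 and 0.95 differed by -2.44 (95% interval -2.90 to -1.97, adjusted p = 1.22e-07 in limma). Rxra, the partner of many nuclear receptors, was at -1.01 and 0.81, and the palmitoyltransferase gene Zdhhc2 at -1.35 and 0.82. Insig1, which holds back sterol synthesis and is itself a target of its regulator, was at -0.96 and 0.43. Ly96, the MD-2 partner of TLR4, was at -0.67 and 0.56. Each of these 5 kept its class with any of the 12 arrays left out. Maf, a factor of Tfh cells and macrophages, was at -1.67 and 1.10, but both CD4+ means lay below the array medians, and the CD11c+ call was lost without abatacept replicate 1 (1.07) or control replicate 1 or 3 (0.99 and 0.95).

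**Figure D5:**
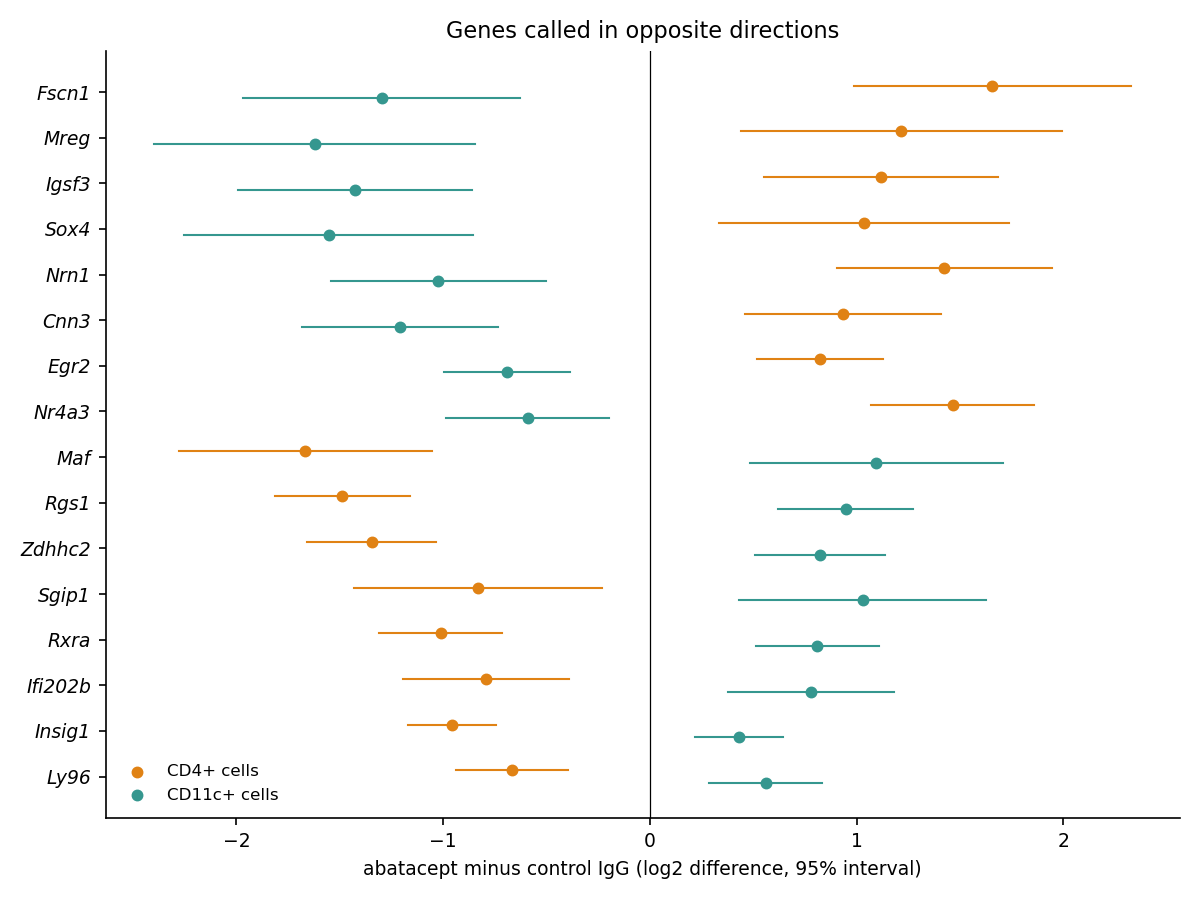
Points are log2 differences between abatacept and control IgG (x axis) with 95% intervals from limma for 16 opposite genes (y axis), in CD4+ cells and in CD11c+ cells. The upper 8 genes were higher in CD4+ and lower in CD11c+ cells, and the lower 8 the other way.

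The receptors and ligands around CD28 did not move as a block. Of 11 genes of the CD28 and B7 families, 3 were lower in CD4+ cells, and 4 were lower and 1 higher in CD11c+ cells, where the counts were 2 and 0 without control replicate 3. Over all genes tested, 14.7% were lower in CD4+ cells, and 9.09% were lower and 5.81% higher in CD11c+ cells. Cd80 was called in neither compartment (-0.03 and 0.12), and the difference of -0.16 had a 95% interval of -0.74 to 0.43. Cd86 was at -0.42 in CD4+ cells (adjusted p = 0.088 in limma) and 0.37 in CD11c+ cells (adjusted p = 0.152). The difference of -0.79 was called (95% interval -1.29 to -0.30, adjusted p = 0.0282) but lost without replicate 2 of either CD4+ group, CD11c+ abatacept replicate 1 or 2, or CD11c+ control replicate 1 or 3, with values of -0.63 to -0.77. Cd28 was at 0.30 in CD4+ cells (adjusted p = 0.101) and -0.37 in CD11c+ cells (adjusted p = 0.0459), with a difference of 0.66 (adjusted p = 0.0123) that was called with any array left out. It was not called with the mean of its probe sets (0.57), without CD11c+ control replicates 2 and 3 (0.59) or with the Eif2s3y covariate (0.26). Its CD11c+ call was lost without any CD11c+ array other than control replicate 2, and without CD4+ abatacept replicate 2 or 3 or control replicate 2, with values of -0.25 to -0.40.

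Ctla4 was called in neither, at 0.42 and -0.31, and its difference of 0.73 had a 95% interval of -0.06 to 1.51, with the CD11c+ means below the array medians. The ligand gene of ICOS, Icosl, fell by 1.08 in CD4+ cells (adjusted p = 0.00287 in limma) and stood at -0.59 in CD11c+ cells (adjusted p = 0.113), with a difference of -0.49 (95% interval -1.21 to 0.23). Its CD4+ arrays overlapped between treatments. The receptor gene Icos, in contrast, was CD4 confined, as given above. Il6 and Ido1 did not pass the filter on low values and were not tested.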

How the data were processed

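Amplified, biotin-labelled total RNA was measured on mouse expression arrays, per the labels. In the deposited table each array has a single log2 value for every probe set, and the authors computed these by RMA, per the submitters' processing notes (version not given in the sources used here). Values ran from 1.667 to 13.242, with array medians of 4.4555 to 4.544. A group mean below these medians was not shown to be above background, so folds against it are not exact. Beside the genes named so in the text, this held in 1 or more groups for Clec10a, Cnn3, Cxcl9, Ly96, Mreg, Nek2, Nrn1, Pdcd1lg2, Rspo1, Spic, Tnfrsf4, Trat1 and 1500009L16Rik. The number of arrays is what limits precision.

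The platform annotation gave 1 gene symbol to 28898 of 45118 probe sets, several to 551 and none to 15669. The test took genes that exceeded the median of the array on 3 or more of 15 arrays in either cell type. Over all 30 arrays, grouped by their labels into 10 groups of 3, limma 3.58.1 under R 4.3.3 (functions lmFit and eBayes, 20 residual degrees of freedom) tested abatacept against control IgG in each cell type and the difference of both effects, 3 comparisons, two-sided, with Benjamini-Hochberg adjustment over 10794 genes. Levels and differences are on the log2 scale. For genes with several probe sets, other probe sets turned the sign of the difference between compartments for Cd44, Cd80, Dhx58, Icosl, Nek2, Prf1 and Socs2, and moved it by over 1.5 times with the same sign for Adam33, Ccr9, Cd86, Eif2s3y, Entpd1, Fscn1, Glipr2, Igsf3, Il1rn, Il2ra, Jun, Nr4a3, Pacsin1, Rxra, Sgip1, Slc38a1, Sox4, Stap2, Trat1, Tyms, Xaf1, Xbp1 and Zdhhc2. The main fit did not pair arrays by replicate number. The procedure was tested on simulated data.

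Named genes were the 8 largest differences between compartments in each direction, the 6 with the largest smaller effect among shared and opposite genes in each direction, the 6 largest effects among genes confined to one compartment in each direction, at most 4 members of each list by smallest adjusted p called by the difference and at most 4 shared, and 28 genes always named. Most genes in the text were picked from these for keeping their calls with any array left out. That choice, and the naming of Cd40 and Prf1, came after values were seen. The members and lists were chosen with earlier results of these data known. Alternatives were a fit on 12 arrays, 2 other filters, quantile normalization again, array weights, a replicate block, the mean of probe sets, an intensity trend, salivary and Eif2s3y covariates, left-out arrays and a 2-fold minimum. Separate fits by cell type, counts of list members and the effects of shared genes under these alternatives were added after the data were seen. Plots were made by matplotlib 3.10.9 (Python 3.11.15). Promoters were matched by symbol, 8762 of the genes tested.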

Additional observations from a re-analysis of the deposited data

Results flagged for a closer look

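These results differed between the cell types by the interaction test itself, the CD4+ effect minus the CD11c+ effect in limma. It was called for 1548 genes. Groups of 3 arrays were too small for a test of single outlying arrays. In 12 genes named by the rule, the effects were called with opposite signs. Lower in CD4+ relative to CD11c+ cells were Maf (-2.76), Rgs1 (-2.44), Zdhhc2 (-2.17), Sgip1 (-1.86), Rxra (-1.82) and Ifi202b (-1.57), an interferon-inducible gene. Higher were Fscn1 (2.96), Mreg (2.84), Sox4 (2.59), Igsf3 (2.55), Nrn1 (2.45) and Cnn3 (2.14). The difference itself remained called for each of the 12 with any array left out. Other probe sets moved it toward 0, to 0.36 for Fscn1, 0.44 for Sox4, 0.97 for Igsf3, -0.43 for Rxra and -0.46 for Sgip1. The call in one compartment was lost for Mreg without CD4+ abatacept or control replicate 1 or 3 or CD11c+ control replicate 3 (0.85, 1.24, 0.87, 1.19 and -1.34). For Sox4 it was lost without CD4+ abatacept replicate 1 or 2 or control replicate 2 or 3 (0.76, 1.11, 1.10 and 0.82), and for Nrn1 and Ifi202b without CD11c+ control replicate 3 (-0.85 and 0.66). The Sgip1 calls were lost without any array other than CD4+ abatacept replicate 2 or CD11c+ abatacept replicate 3 (-0.62 to -0.95 in CD4+ and 0.85 to 1.05 in CD11c+ cells), and both of its CD4+ means lay below the array medians.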

How the results depend on the processing

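The CD4+ count of 2001 genes was within 1.5 times under each alternative except CD4+ abatacept replicate 3 left out and the 2-fold minimum, and the other counts moved as follows. With array weights 2780 genes were called in CD11c+ cells and 2515 by the difference, with 463 shared, 228 opposite and 1015 CD11c confined. With the salivary covariate 64 were opposite. With the Eif2s3y covariate the counts were 2 in CD11c+ cells, 11 by the difference, 0 shared, 0 opposite, 9 CD4 confined and 2 CD11c confined, where effects shrank and standard errors rose as given above. With a 2-fold minimum they were 298 in CD4+ cells, 215 in CD11c+ cells, 521 by the difference, 14 shared, 6 opposite, 196 CD4 confined and 138 CD11c confined. Without CD11c+ control replicates 2 and 3, which leaves 1 control array assumed to vary like the other groups, they were 657 in CD11c+ cells, 933 by the difference, 99 shared, 47 opposite, 467 CD4 confined and 311 CD11c confined. Leaving out 1 array gave 1291 to 2184 in CD4+ cells, 641 to 1852 in CD11c+ cells, 1015 to 1708 by the difference, 109 to 299 shared, 38 to 125 opposite, 483 to 866 CD4 confined and 242 to 749 CD11c confined. No other alternative moved a count by over 1.5 times, and the cause of these moves was not tested.

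Most genes in the text were picked for keeping their calls with any array left out, so their calls say nothing about stability over all genes. Of their 110 called values, 83 lost the call under the Eif2s3y covariate and 8 under the salivary covariate. The Eif2s3y covariate also turned the difference between compartments for Pdcd1lg2 (-0.64), Rspo1 (0.30), Ctla4 (-0.42), Cxcl10 (-0.085) and Xist (4.90). The difference for Prf1, -0.04 and not called, turned to 0.35 with that covariate, 0.47 with the mean of probe sets and 0 after quantile normalization. It ran from -0.111 to 0.016 with 1 array left out, turning without CD4+ abatacept replicate 3 or CD11c+ control replicate 1 (0.012). The difference for Cd80 ran from -0.38 to 0.01 with 1 array left out, turning without CD11c+ control replicate 2, and was 0.087 without replicates 2 and 3. Of 360 counts of list members 303 were within 1.5 times.

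Deviations of same-numbered abatacept and control arrays correlated at -0.06, -0.02 and -0.01 in CD4+ and 0.18, 0.01 and 0.19 in CD11c+ cells. Arrays of unlike number correlated at -0.035 to 0.058 in CD4+ and at -0.197 to 0.05 in CD11c+ cells. The numbers thus showed no pairing in CD4+ cells, while in CD11c+ cells replicates 1 and 3 lay above all unlike pairs. Pairing of CD4+ with CD11c+ arrays was not examined, and the labels do not give it. With the replicate block 1930 genes were called in CD4+ cells, 1593 in CD11c+ cells and 1514 by the difference, with 252 shared, 102 opposite, 701 CD4 confined and 540 CD11c confined.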

Other observations

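Lists of energy metabolism gave these counts. Of 20 oxidative phosphorylation genes 13 were lower in CD4+ cells (8 without abatacept replicate 3) and 0 in CD11c+ cells in limma (1 at an unadjusted p under 0.05), with medians of -0.22 and -0.05. The difference was called for 4, each lower in CD4+ relative to CD11c+ cells, for 2 without CD4+ abatacept replicate 2, CD11c+ abatacept replicate 1 or CD11c+ control replicate 3, and for 1 without CD4+ abatacept replicate 3. All genes tested gave 14.7% lower in CD4+ cells, 9.09% lower in CD11c+ cells and 14.3% called by the difference. Of 14 glycolysis genes 8 were lower in CD4+ and 5 in CD11c+ cells, with medians of -0.27 and -0.17. The difference was called for 3 (1 without CD11c+ abatacept replicate 1), with a median of -0.04. Among the 14 genes Pgk1, a kinase of the payoff phase, and Slc2a3, a glucose transporter, were shared. The CD11c+ count was 2 without abatacept replicate 1 or control replicate 3, and 3 without abatacept replicate 2 or control replicate 1.

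Of 10 MHC class II genes 0 were called in CD4+ cells in limma (2 at an unadjusted p under 0.05), and 3 were lower in CD11c+ cells with a list median of -0.36. The latter count was 1 without CD11c+ abatacept replicate 1 or control replicate 1 or 3. Among all genes 9.09% were lower in CD11c+ cells.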
